A study of Mus musculus with 9 samples.

Results

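Hmgcs1, Idi1, Fdps, Sqle, Lss, Cyp51 and Insig1 are target genes of SREBP2, the transcription factor that drives cholesterol synthesis and uptake. They were followed by their symbols in the liver RNA sequencing table of Tet-OFF mice. The 7 genes are 7 of the 32285 gene identifiers of that table, and all 7 were among the 12100 genes that could be tested, those averaging 10 or more normalized counts. Their levels were compared between 3 groups of 3 liver libraries each: controls, mice given doxycycline (Dox) and mice given tetracycline (Tc).

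All mice carried a CAG-CreERT2 transgene inserted with piggyBac, a tTA gene behind a loxP-flanked stop cassette at Rosa26, and a tetO-Venus-ires-mCherry reporter at Rosa26. Mice of all 3 groups received tamoxifen, which activates CreERT2 and so releases tTA, the transactivator that these antibiotics switch off. They were 4 weeks old. Dox hyclate or Tc hydrochloride was given at 2 mg/mL in drinking water with 10 mg/mL sucrose for 7 days, and the labels do not say whether the controls drank sucrose. The CAG promoter is active in many tissues, so the transgenes were not limited to hepatocytes. An effect of a drug on the liver and an effect of switching off tTA and the reporter cannot be told apart in this design. Dox and Tc are isomers that differ in the position of a hydroxyl group, and the comparison between them asks whether the liver transcriptome responds to them to the same degree.

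In the sterol pathway, SREBP2 is held in the endoplasmic reticulum by its escort SCAP as long as INSIG proteins anchor SCAP there. When membrane cholesterol falls, SCAP carries SREBP2 to the Golgi, proteases release its active part, and that part raises transcription of genes of cholesterol synthesis and uptake. Insig1 is itself an SREBP target and so feeds back on the pathway, while Insig2 is abundant in liver and rises in fasting. The liver makes cholesterol both for its own membranes and for lipoproteins and bile acids.

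RefSeq promoter windows (GRCm38.p6, 250 bases before to 50 bases after the start of the transcript) were found for 5 of the 7 genes, and 4 of them are printed. Hmgcs1 and Cyp51 are shown because they belong to the genes that were lowest in Dox library 2, and Lss and Insig1 because they departed from that pattern in the values that follow. Capitals mark, on either strand, the sterol regulatory element core TCACCCCAC, the NF-Y letters CCAAT and the Sp1 letters GGGCGG, NF-Y and Sp1 being factors that act together with SREBPs. The windows lie at chr13:119690101-119690400 on the plus strand (Hmgcs1), chr5:4104648-4104947 on the minus strand (Cyp51), chr10:76531355-76531654 on the plus strand (Lss) and chr5:28071162-28071461 on the plus strand (Insig1), and each is written 5′ to 3′ along its gene.
Hmgcs1: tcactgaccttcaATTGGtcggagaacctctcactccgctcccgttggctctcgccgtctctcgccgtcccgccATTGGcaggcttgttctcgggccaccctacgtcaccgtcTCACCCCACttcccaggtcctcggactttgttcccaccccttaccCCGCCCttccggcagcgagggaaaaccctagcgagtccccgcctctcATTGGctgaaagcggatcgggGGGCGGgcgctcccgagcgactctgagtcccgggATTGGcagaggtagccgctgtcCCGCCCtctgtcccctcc
Cyp51: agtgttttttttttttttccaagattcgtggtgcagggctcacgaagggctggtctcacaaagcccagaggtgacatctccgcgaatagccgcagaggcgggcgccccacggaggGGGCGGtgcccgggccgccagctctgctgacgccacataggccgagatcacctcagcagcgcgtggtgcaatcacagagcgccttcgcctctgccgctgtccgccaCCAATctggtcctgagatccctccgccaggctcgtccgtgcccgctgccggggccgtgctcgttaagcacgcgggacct
Lss: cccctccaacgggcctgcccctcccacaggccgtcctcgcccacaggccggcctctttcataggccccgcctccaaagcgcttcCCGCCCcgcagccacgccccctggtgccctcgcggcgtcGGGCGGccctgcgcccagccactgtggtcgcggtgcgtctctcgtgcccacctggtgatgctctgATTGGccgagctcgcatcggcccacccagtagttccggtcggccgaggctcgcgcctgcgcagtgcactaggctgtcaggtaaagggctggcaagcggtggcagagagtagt
Insig1: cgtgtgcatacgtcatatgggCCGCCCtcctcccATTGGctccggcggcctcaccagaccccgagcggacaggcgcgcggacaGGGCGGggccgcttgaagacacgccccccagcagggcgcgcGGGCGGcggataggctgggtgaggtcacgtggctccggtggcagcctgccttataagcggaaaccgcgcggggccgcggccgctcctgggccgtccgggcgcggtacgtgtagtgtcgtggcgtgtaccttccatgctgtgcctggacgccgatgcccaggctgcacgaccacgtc

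The core TCACCCCAC was found in 1 of the 5 windows, that of Hmgcs1, starting 137 bases before the transcript start, and 0.556% of 32544 promoter windows hold it. The relaxed form TCACNNCAC, which contains the core, was present in the same window alone among the 5, against 3.76% of all windows. CCAAT was present in 5 of the 5 windows (37.4% of all windows) and GGGCGG also in 5 of 5 (35.9% of all windows). Hmgcs1 held 4 matches to CCAAT, whereas Cyp51, Lss and Insig1 held 1 each. Across the 21 cholesterol synthesis enzymes, 16 had a window, of which 15 held CCAAT, 15 held GGGCGG, 4 held the relaxed element and 1 held the core.

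The number of recovered reads assigned to genes was 8250804 to 10912338 in controls, from 7426136 to 10330238 with Dox and from 10216627 to 12183041 with Tc. In each group, library 3 resembled a mixture of libraries 1 and 2, with fitted weights for those of 58.4% and 41.7% in controls, 61.3% and 34.5% with Dox, and 61.2% and 36.9% with Tc. Among genes with libraries 1 and 2 more than 2-fold apart, the share whose library 3 value was intermediate was 85.5% in controls, 97.1% with Dox and 94.1% with Tc. The same share for libraries 1 and 2, over genes whose other pair was more than 2-fold apart, was 50.2% and 51.3% in controls, 9.63% and 8.4% with Dox, and 28.8% and 27.6% with Tc. Counted without that 2-fold limit, library 3 was intermediate for 7 of 7 SREBP2 targets with Dox, 6 of 7 with Tc and 3 of 7 in controls. In controls only 1 of the 7, Hmgcs1, had libraries 1 and 2 over 2-fold apart, so these counts are not comparable with those shares. The study describes 3 independent samples per group, and whether libraries 3 hold livers of their own was not tested. If they do not, the SDs (n = 3) and adjusted p-values from all 9 libraries are too small, so the main results are also given without libraries 3. Dox library 2 had the fewest recovered reads of the 9 (7426136), and its most abundant gene was Gm26917, with 4.36% of the normalized total, whereas it was Alb in the other 8. The part of this in the low Dox values was not tested. The 8 hepatocyte markers were all detected, with summed normalized counts of 1149720 to 1625880 in controls, 619878 to 867640 with Dox and 861860 to 1290940 with Tc. Alb made up 83.2% to 86.7% of this sum in controls, 41.2% to 70.0% with Dox and 66.9% to 84.7% with Tc. The other 7 summed to 193564 to 217046, 260188 to 364331 and 197728 to 285131, and the median log2 fold change of the 8 was -0.10 with Dox and 0.13 with Tc, with 4 higher and 4 lower in each. The 6 Kupffer cell markers summed to 6324 to 10371 in controls, 1762 to 4486 with Dox and 2997 to 5979 with Tc, and the 6 sinusoidal endothelial markers to 4531 to 4718, 2307 to 2796 and 3560 to 4081. In whole liver, fewer cells of a type and less RNA per cell cannot be told apart, and the part of these marker levels in the results was not tested.

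Hmgcs1 encodes the cytosolic HMG-CoA synthase, which feeds the mevalonate pathway (chromosome 13, 119690379 to 119708260, plus strand, GRCm38). Its normalized counts were 638, 1327 and 933 in control libraries 1, 2 and 3, 1295, 314 and 943 in the Dox libraries, and 1594, 3848 and 2527 in the Tc libraries. The Tc libraries all lay above both other groups, whereas Dox and control overlapped, with only Dox library 2 below all controls. The means were 966 ± 346 in controls, 851 ± 497 with Dox and 2656 ± 1133 with Tc (SD, n = 3).

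Idi1, the isomerase that makes the reactive isoprene unit from isopentenyl diphosphate (chromosome 13, 8885501 to 8892451, plus strand), had the lowest mean level of the 7 genes per exon length in each group. Its normalized counts were 45.5, 64.6 and 42.0 in controls, 50.5, 5.75 and 38.7 with Dox, and 92.8, 201 and 122 with Tc. Dox library 2 again stood far below the rest, on 5 recovered reads, which allow a normalized count of 1.87 to 13.4 (exact Poisson 95% interval, counting error only). Every Tc library was above every control and Dox library.

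Fdps joins isoprene units into farnesyl diphosphate, the branch point to sterols and to prenylated proteins (chromosome 3, 89093588 to 89101959, minus strand). It had normalized counts of 220.2, 369 and 306 in controls, 459, 33.4 and 282 with Dox, and 642, 1338 and 907 with Tc. The gap between Dox libraries 1 and 2 was 13.8-fold, the widest among the 7 genes, and Dox library 1 was above all controls. GENCODE annotates a same-strand gene, Gm43738, across most of the Fdps span. Gm43738 is not among the gene identifiers with deposited values, and how reads there were assigned, and with it the level of Fdps, is uncertain.

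Sqle encodes squalene epoxidase, a rate-limiting enzyme of the sterol branch (chromosome 15, 59315077 to 59331192, plus strand). Its normalized counts were 166, 211 and 219 in controls, 93.7, 11.5 and 55.4 with Dox, and 293, 1040.4 and 559 with Tc. The 3 groups did not overlap at any point, with every Dox library below every control and every Tc library above. The lowest value, in Dox library 2, rests on 10 reads (5.52 to 21.2 normalized counts by the exact Poisson 95% interval).

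Cyp51, the lanosterol demethylase (chromosome 5, 4081145 to 4104746, minus strand), was nearly constant in controls, with normalized counts of 602, 608 and 598. It had 588, 93.2 and 413 with Dox and 990.2, 2069 and 1441 with Tc. The Dox libraries were all below the controls, library 1 by the smallest margin, and the Tc libraries were all above them. The last bases of the gene overlap Akap9 on the other strand.

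Lss encodes lanosterol synthase, which closes the sterol rings (chromosome 10, 76531588 to 76557138, plus strand). Its normalized counts were 304, 318 and 319 in controls, 384, 504 and 406 with Dox, and 441, 905 and 656 with Tc. All Dox libraries were above all controls, and unlike the 5 genes described so far, its highest Dox value was that of library 2. Dox library 2 and Tc library 1 overlapped the other drug's range.

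Insig1, the anchor of SCAP (chromosome 5, 28071363 to 28078662, plus strand), had normalized counts of 938, 1262 and 1015 in controls, 2739, 1493 and 2232 with Dox, and 1941, 2197 and 2389 with Tc. Every library of either drug was above every control. The Dox and Tc groups overlapped, with means of 2155 ± 626 and 2176 ± 224 against 1071 ± 169 in controls (SD, n = 3).

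**Figure D1:**
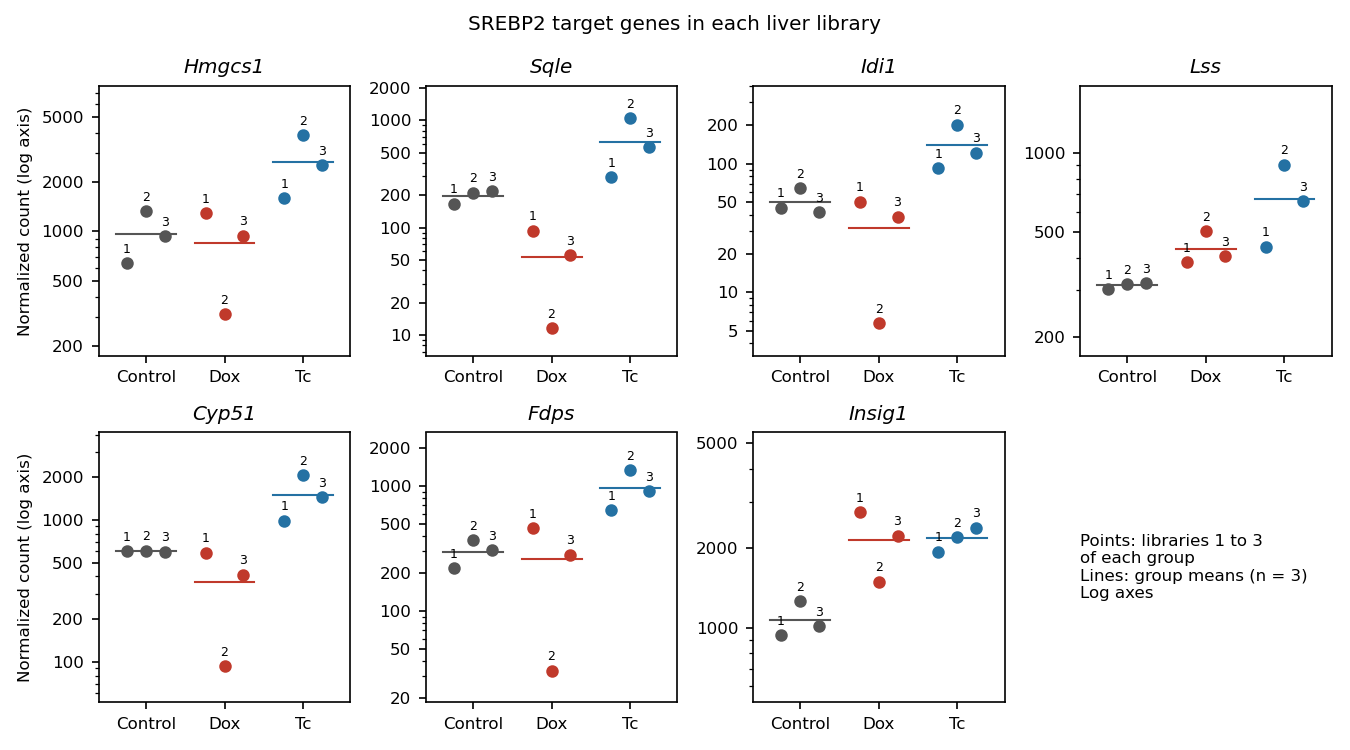
Normalized counts (log axis) of the 7 SREBP2 target genes in libraries 1 to 3 of the Control, Dox and Tc groups, with points for libraries and lines for group means (n = 3). All Tc points lie above all control points, and Dox library 2 is the lowest of the 9 for Hmgcs1, Sqle, Idi1, Cyp51 and Fdps, but not for Lss or Insig1.

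Per kilobase of annotated exons, the order of the control means was Insig1 (346), Hmgcs1 (210.3), Cyp51 (136), Fdps (70.9), Sqle (35.8), Lss (29.1) and Idi1 (14.5), in normalized counts per kilobase, and no neighbours in this order overlapped between libraries. With Tc the order of the 7 genes was the same, from 703 for Insig1 to 39.6 for Idi1, but each gene overlapped the next. With Dox, Insig1 stood at 697 and Hmgcs1 at 185, and Lss (40.0) came before Sqle (9.66) and Idi1 (9.04), which overlapped each other. Lss has 10787 bases of annotated exons, more than the other 6 genes, which lowers its level per kilobase.

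Against controls, all 7 genes had higher fitted levels with Tc, with a median log2 fold change of 1.39 beside 0.00 over all genes tested (1.32 without libraries 3). The fitted log2 fold changes were 1.65 for Fdps (SE 0.83), 1.49 for Sqle (SE 0.71), 1.43 for Hmgcs1 (SE 0.54), 1.39 for Idi1 (SE 0.69), 1.25 for Cyp51 (SE 0.60), 1.03 for Lss (SE 0.24) and 1.03 for Insig1 (SE 0.23). All 7 had Tc libraries that did not overlap the controls and were higher, against 15.8% of all genes, and none was lower, against 14.9%. This count was also 7 of 7 without libraries 3, against 23.6% of all genes.

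A gene was called when its fold change exceeded 2 and its p, adjusted by Benjamini-Hochberg over all genes tested, was under 0.05. By that rule limma called 0 of the 7 genes with Tc against controls, where it called 0.165% of all genes. At an unadjusted p under 0.05, 3 of 7 passed (Hmgcs1, Lss and Insig1), all higher, against 11.7% of all genes in either direction. The limma adjusted p was 0.161 for Insig1, 0.169 for Lss and 0.381 for Hmgcs1, and 0.471 to 0.499 for the other 4. DESeq2 on recovered reads called 2 of 7, Lss (adjusted p = 0.00615) and Insig1 (adjusted p = 0.00429), against 1.56% of all genes. EdgeR called 0 of 7, beside 21 of the 12100 genes tested. Without libraries 3, DESeq2 called 0 of 7 (0.0744% of all genes). Limma then called 0 of all 12100 genes tested, here and in both other comparisons, so its 0 of 7 was fixed. By limma, 2 of 7 then had an unadjusted p under 0.05, beside 239 of the 12100 genes tested. In the shared limma model the spread of the Dox libraries enters this comparison: without Dox library 2 it called 5 of 7 genes with Tc (Idi1, Lss, Cyp51, Fdps and Insig1, adjusted p from 0.00763 to 0.0342), and with only the control and Tc libraries in the fit also 5. The shares of all genes called in these fits are not given, so these counts are not read as particular to the 7 genes.

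With Dox, the fitted changes of the 7 genes had both signs, 5 below and 2 above 0. The median log2 fold change against controls was -0.83 by limma (-1.19 without libraries 3), -0.225 by DESeq2 and -0.223 by edgeR, and 0.257 by limma without Dox library 2, so its sign rests on that library. Sqle had the lowest value, -2.29 (SE 0.71, 95% interval -3.90 to -0.67), with a limma adjusted p of 0.0781. Cyp51 followed with -1.09 (SE 0.60), Idi1 with -1.08 (SE 0.69), Fdps with -0.83 (SE 0.83) and Hmgcs1 with -0.35 (SE 0.54), at limma adjusted p from 0.260 to 0.695. Without Dox library 2, Hmgcs1 turned to 0.257 and Fdps to 0.299 on the log2 scale.

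Insig1 and Lss were on the other side of 0 with Dox. Insig1 had a log2 fold change of 0.97 (SE 0.23) and a limma adjusted p of 0.0365, but at 1.97-fold it missed the fold limit. Lss had 0.45 (SE 0.24, limma adjusted p = 0.247). Of the 7 genes, 2 (Lss and Insig1) had Dox libraries all above the controls, against 16.1% of all genes, and 2 (Sqle and Cyp51) all below, against 17.1%.

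With Dox against controls limma called 0 of the 7 genes, where it called 5% of all genes. At an unadjusted p under 0.05, 2 of 7 passed (Insig1 higher, Sqle lower), against 29.1% of all genes. DESeq2 called 1 of 7, Sqle (log2 fold change -1.90, adjusted p = 0.0199), against 9.4% of all genes. EdgeR called 0 of 7, beside 668 of the 12100 genes tested. Without libraries 3, DESeq2 called 0 of 7 (1.2% of all genes), with a DESeq2 adjusted p of 0.485 for Sqle, and limma called 0 of all genes tested. By limma, 0 of 7 then had an unadjusted p under 0.05, beside 1040 of the 12100 genes tested. Leaving out Dox library 1 brought Sqle past the limma threshold (log2 fold change -2.90, adjusted p = 0.0202), and leaving out Dox library 2 did so for Insig1 (1.22, adjusted p = 0.00338).

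Set directly against Tc, Dox livers had lower levels of 6 of the 7 genes at an unadjusted p under 0.05, against 21.7% of all genes in either direction. The log2 fold changes of Dox over Tc were -3.78 for Sqle (SE 0.71, 95% interval -5.39 to -2.16), -2.48 for Fdps (SE 0.83), -2.47 for Idi1 (SE 0.69), -2.34 for Cyp51 (SE 0.60), -1.78 for Hmgcs1 (SE 0.54) and -0.58 for Lss (SE 0.24). For Insig1 it was -0.05, with a 95% interval of -0.57 to 0.46, so differences within that range in either direction remained compatible with the values. The median over the 7 genes was -2.34 beside -0.02 over all genes tested, and -2.61 without libraries 3. Scaling every library to the same total shifted the median of all genes tested to 0.16 between Dox and Tc and to 0.17 between Dox and controls, and turned Insig1 between Dox and Tc to 0.122 on the log2 scale, with the direction of the other 6 genes unchanged in both comparisons.

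By limma, 0 of the 7 genes passed both thresholds between Dox and Tc, where 0.215% of all genes did. The limma adjusted p was 0.0752 for Sqle and from 0.116 to 0.216 for the other 5 lower genes, and 0.899 for Insig1. Over all genes tested, Dox and Tc libraries of the same number tended to deviate alike. The 7 genes did not: their median log2 difference of library 2 from library 1 was -2.64 with Dox and 1.06 with Tc. With the replicate number as a block in a limma fit of these groups 0 of 7 passed (adjusted p from 0.379 for Sqle, Idi1, Lss and Cyp51 to 0.916 for Insig1). A shared block does not take up such opposite deviations, so this fit is a weak check for these genes. DESeq2 called 4 of 7 lower with Dox (Sqle, Cyp51, Idi1 and Hmgcs1, adjusted p from 4.15e-06 to 0.0245), against 4.98% of all genes. EdgeR called 0 of all 12100 genes tested, so its 0 of 7 was fixed. Without libraries 3, limma too called 0 of all genes tested, and 3 of 7 had an unadjusted p under 0.05, beside 454 of the 12100 genes tested. DESeq2 then called 1 of 7, Sqle (log2 fold change -3.66, adjusted p = 0.0466), against 0.256% of all genes. Leaving out Dox library 1 gave 5 limma calls and leaving out Dox library 2 gave 3 (Sqle, Idi1 and Cyp51), all lower. The shares of all genes called in those fits are not given, so these counts are not read as particular to the 7 genes.

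The Dox and Tc libraries did not overlap for 5 of the 7 genes (Hmgcs1, Sqle, Idi1, Cyp51 and Fdps), all lower with Dox, against 12.4% of all genes. None was higher without overlap, against 12.2%. Without libraries 3 the count lower was again 5, against 15.5% of all genes. The comparisons with controls share the control libraries and are given only by their own values.

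**Figure D2:**
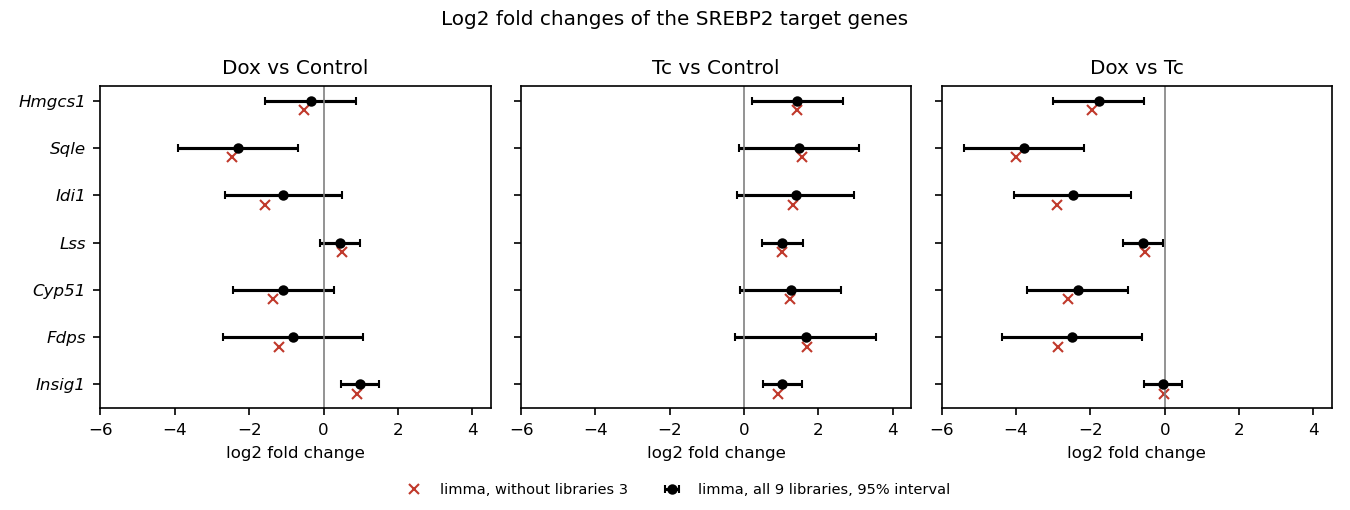
Log2 fold changes of the 7 SREBP2 target genes in the 3 comparisons, with points and 95% intervals from limma on all 9 libraries and crosses from limma without libraries 3. Tc against Control lies at 1.03 or above for all 7, Dox against Control runs from -2.29 for Sqle to 0.97 for Insig1, and Dox against Tc is furthest from 0 for Sqle, at -3.78.

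The libraries of each drug differed among themselves in opposite directions. In Dox library 2, 6 of 7 genes were lower than in library 1, 5 of them over 2-fold, with a median log2 difference of -2.64 beside 0.02 over all genes tested. Of all genes, 49.1% were lower there, 17.6% over 2-fold, and 35.2% were over 2-fold apart in either direction, against 4.84% between control libraries 1 and 2. The ratio of library 1 to library 2 was 13.8 for Fdps, 8.79 for Idi1, 8.15 for Sqle, 6.31 for Cyp51, 4.12 for Hmgcs1 and 1.83 for Insig1. In Tc library 2, 7 of 7 genes were higher than in library 1, 6 of them over 2-fold, with a median log2 difference of 1.06 beside -0.02, where 47.5% of all genes were higher and 6.16% over 2-fold. Sqle was 3.55 times as high in Tc library 2 as in Tc library 1, and Insig1 1.13 times. In controls, too, 7 of 7 genes were higher in library 2 than in library 1, against 47.9% of all genes, with a median log2 difference of 0.43 and 1 gene (Hmgcs1) over 2-fold apart.

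Other transcripts set the same Dox libraries apart. The 12 tested SREBP1 fatty acid synthesis genes had a median log2 difference of -2.71 in Dox library 2 against library 1, and of -0.60 in Tc library 2 against library 1, where 12 of 12 were lower while the 7 SREBP2 targets were higher. Arntl, a core clock gene chosen after its values were seen, had normalized counts of 8.42 and 350 in Dox libraries 1 and 2, 8.79 and 12.6 in Tc libraries 1 and 2, and 37.0 and 62.8 in control libraries 1 and 2. The part of these differences in the results on the 7 genes was not tested.

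Across the 9 libraries, Hmgcs1, Sqle, Idi1, Cyp51 and Fdps varied together, with a Pearson r of 0.90 to 0.99 in their 10 pairs on the log2 scale. Pairs with Lss had r from 0.38 to 0.61 and pairs with Insig1 from 0.13 to 0.61. These are descriptions over 9 libraries from groups that themselves differ, and libraries 3 resemble the others of their group. Among 9372 genes with a mean of at least 50, the 10 whose levels followed the mean of the 7 genes most closely included Msmo1 (r = 0.980), Mvd (0.976), Tbcb (0.970), Gstp3 (0.968), Atp11a (0.966), Lrrk1 (0.964), Nrp1 (0.963), Clptm1l (0.962) and Daam1 (0.955). Of the 10, 2 are cholesterol synthesis enzymes: Msmo1, a sterol methyl oxidase, and Mvd, mevalonate diphosphate decarboxylase. Insig2 ran against the 7 genes, with r = -0.841.

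The wider pathway was counted over a list of synthesis enzymes. Of the 21 enzymes of the list, which include 6 of the 7 genes, 21 had a higher fitted level with Tc than in controls, with a median log2 fold change of 1.03. Of these, 16 had Tc libraries all above the controls (15.8% of all genes) and 9 passed an unadjusted p under 0.05 (11.7% of all genes). Limma called 0 (0.165% of all genes), DESeq2 4 (1.56% of all genes, and 0 enzymes without libraries 3) and edgeR 0 (21 of all 12100 genes tested). With Dox the median was -0.46, with 5 enzymes all below the controls (17.1% of all genes) and 2 all above (16.1%). Limma called 1, lower, where it called 5% of all genes. Without libraries 3 it called 0 of all genes tested. DESeq2 called 2 with Dox (9.4% of all genes), and 0 without libraries 3. These Dox shares were near those of all genes. Between Dox and Tc the median was -1.52, with 15 enzymes lower without overlap (12.4% of all genes) and 16 at an unadjusted p under 0.05, all lower (21.7% of all genes in either direction). There limma called 1 (0.215% of all genes), and DESeq2 10 (4.98% of all genes). Without libraries 3, limma called 0 of all genes tested, and DESeq2 1 enzyme (0.256% of all genes). In Dox library 2, 18 of 21 enzymes were lower than in library 1, 16 of them over 2-fold. The 3 others, named after their values were seen, were Lss, Lbr and Hsd17b7. In Tc library 2, 19 of 21 were higher than in library 1.

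Mvk, the mevalonate kinase, was the enzyme called between Dox and Tc. It had normalized counts of 133, 176 and 155 in controls, 93.7, 71.3 and 96.8 with Dox, and 203, 371 and 298 with Tc, with no overlap between the 3 groups. The log2 fold change of Dox over Tc was -1.70 (SE 0.24, limma adjusted p = 0.0498). With the replicate block the adjusted p was 0.379, and without libraries 3 DESeq2 gave 0.0635.

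Dhcr7, which makes cholesterol from its immediate precursor, had 673, 546 and 590 normalized counts in controls, 503, 152 and 348 with Dox, and 887, 1452 and 1111 with Tc. The Dox libraries were all below and the Tc libraries all above the controls, at limma adjusted p of 0.133 and 0.421 (DESeq2 adjusted p of 0.663 and 1 without libraries 3). Fdft1, squalene synthase, had 320, 304 and 327, then 524, 301 and 418, then 608, 1124 and 787, and limma gave an adjusted p of 0.0958 for Tc against controls (DESeq2 adjusted p of 0.601 without libraries 3).

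**Figure D3:**
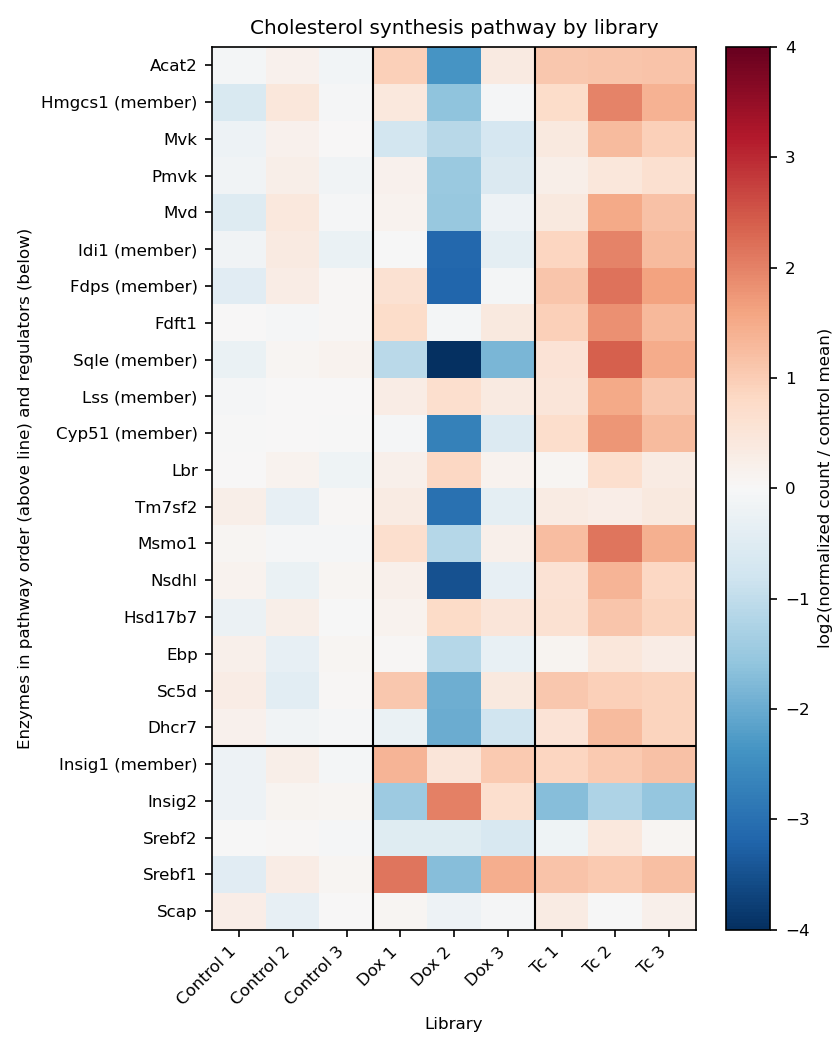
Log2 ratio of the normalized count in each of 9 libraries to the control mean, for 19 of the 21 cholesterol synthesis enzymes in pathway order and, under the line, 5 regulators. Dox library 2 is blue for most enzymes, except Lss, Lbr and Hsd17b7, and red for Insig2, while the Tc libraries are red for most enzymes.

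Among the regulators, Srebf2, the gene of SREBP2 itself, had normalized counts of 661, 690.1 and 651 in controls, 476, 481 and 427 with Dox, and 596, 890.3 and 703 with Tc. The Dox libraries were all below the controls and all below the Tc libraries, with a log2 fold change of -0.53 against controls (SE 0.15, limma adjusted p = 0.0647) and -0.64 against Tc (SE 0.15, limma adjusted p = 0.107). Without libraries 3 the DESeq2 adjusted p was 0.648 and 0.826. The transcript level is not a measure of SREBP2 cleavage. Scap had 2273, 1496 and 1913 in controls, 2016, 1661 and 1825 with Dox and 2397, 1891 and 2166 with Tc, with all 3 groups overlapping.

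Insig2 had normalized counts of 1690.5, 2121 and 2052 in controls, 707, 7866 and 3134 with Dox, and 603, 831 and 668 with Tc. The Tc libraries were all below the controls (log2 fold change -1.49, SE 0.71, limma adjusted p = 0.470, and a DESeq2 adjusted p of 1 without libraries 3). Dox library 2, where most of the 7 genes were lowest, held the highest Insig2 value of the 9 libraries, while Dox library 1 was in the range of Tc. Srebf1, which encodes the SREBP that serves fatty acid synthesis, had 1362, 2304 and 1988 in controls, 8268, 580 and 5171 with Dox, and 4130, 3924 and 4329 with Tc, so it too was lowest in Dox library 2. Of the 12 SREBP regulators tested, which include Insig1, limma called 0 in each comparison. For Dox against controls, Tc against controls and Dox against Tc, 3, 2 and 2 passed an unadjusted p under 0.05 (29.1%, 11.7% and 21.7% of all genes). DESeq2 called 0, 1 (Insig1) and 1 (Insig2), against 9.4%, 1.56% and 4.98% of all genes. EdgeR called 0 in each, beside 668, 21 and 0 of all 12100 genes tested. Without libraries 3, DESeq2 called 0 in each, and limma called 0 of all genes tested.

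**Figure D4:**
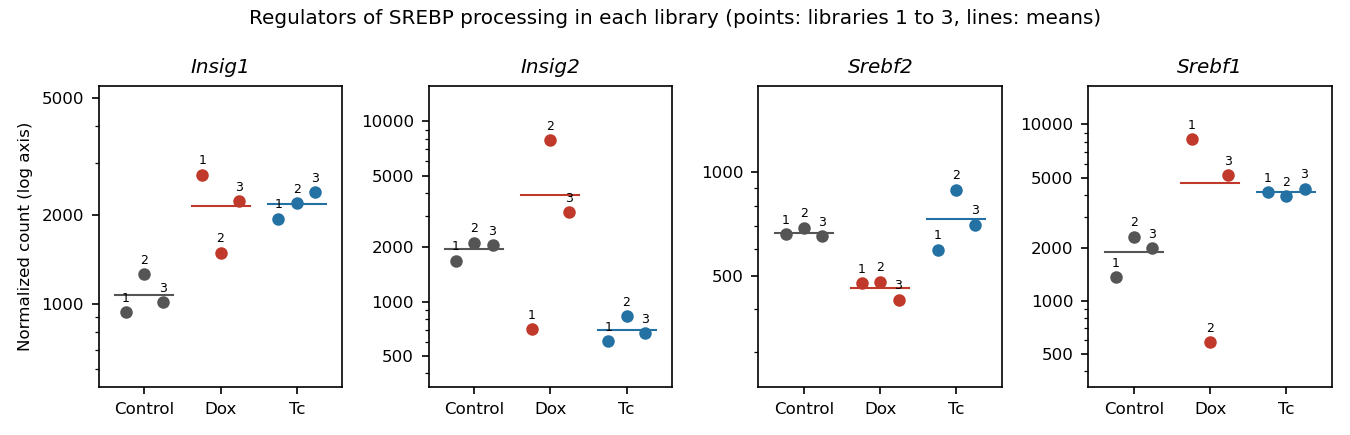
Normalized counts (log axis) of Insig1, Insig2, Srebf2 and Srebf1 in libraries 1 to 3 of each group, with lines for group means (n = 3). Insig2 is at 7866 in Dox library 2 and at 831 or below in the Tc libraries, whereas Srebf1 is lowest, at 580, in Dox library 2.

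Over the 14 genes of cholesterol uptake and transport the median log2 fold changes were -0.06 with Dox and -0.01 with Tc against controls, and -0.39 for Dox over Tc, and limma called 0 in each comparison. At an unadjusted p under 0.05, 3, 2 and 3 of the 14 passed, against 29.1%, 11.7% and 21.7% of all genes. DESeq2 called 2, 1 and 1, against 9.4%, 1.56% and 4.98% of all genes. EdgeR called 0 in each, beside 668, 21 and 0 of all 12100 genes tested. Without libraries 3, DESeq2 called 0 in each, where limma called 0 of all genes tested.

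Outside synthesis and uptake, most limma calls in the related lists were made with Dox, where limma called 5% of all genes, against 0.165% with Tc. Abcg5 and Abcg8 encode the paired transporter that exports sterols into bile. Abcg5 had 597, 371 and 534 normalized counts in controls and 1473, 1463 and 1512 with Dox, and rose by a log2 fold change of 1.59 (SE 0.19, limma adjusted p = 0.00744). With Tc it had 1098, 795 and 950, all above the controls too, but limma did not call it. Abcg8 had 690.2, 458 and 605 in controls and 2208, 2209 and 2226 with Dox, and rose by 1.94 on the log2 scale (SE 0.23, limma adjusted p = 0.0067). With Tc it had 1828, 1020 and 1469, also all above the controls and not called by limma. The Dox libraries agreed closely for this pair, including library 2, and without libraries 3 the DESeq2 adjusted p was 0.00943 and 0.00325. These were 2 of 11 tested genes of sterol removal, whose median log2 fold change with Dox was 0.14.

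Gpam, the first enzyme of glycerolipid synthesis, rose with Dox by 1.41 on the log2 scale (SE 0.15, limma adjusted p = 0.005, DESeq2 adjusted p = 0.000469 without libraries 3). It was the only limma call with Dox among 12 tested SREBP1 fatty acid synthesis genes, whose median was 0.08. Its normalized counts were 1741, 1657 and 1896 in controls and 3441, 2522 and 2882 with Tc, all above the controls but not called by limma. The clock genes Bhlhe40 (log2 fold change 1.34, limma adjusted p = 0.0350) and Ciart (1.10, limma adjusted p = 0.0198) rose with Dox, and Per2 rose with Tc (1.32, limma adjusted p = 0.0316), among 17 tested. Without libraries 3, limma called 0 of all genes tested, and the DESeq2 adjusted p was 0.196 for Bhlhe40, 0.317 for Ciart and 0.0981 for Per2. The Dox libraries were also all above the controls for Per2 (412, 288 and 414 against 188, 186 and 184 normalized counts). For Bhlhe40 and Ciart the Tc libraries overlapped the controls. In the isoprenoid branch that leads away from sterols, limma called 0 of 9 genes in each comparison, with medians of 0.04, 0.21 and 0.02 for Dox against controls, Tc against controls and Dox against Tc. There, 2, 0 and 1 passed an unadjusted p under 0.05 (29.1%, 11.7% and 21.7% of all genes). DESeq2 called 0 in each, and edgeR 0 in each (668, 21 and 0 of all 12100 genes tested).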

How the data were processed

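Liver RNA was sequenced in 3 groups of 3 libraries each with a directional library kit. Per the labels and the study's methods, the authors trimmed reads with cutadapt, aligned them to mm10 with STAR 2.7.11ac, counted uniquely mapped reads per GENCODE gene with HTSeq 2.0.5 and normalized the counts with DESeq2 1.42.0. The strand setting of the counting is not given in the sources used here. The deposited signal is thus a normalized count, a count divided by a size factor per library. All columns of the table were used. Dividing each deposited value by what 1 read is worth in its library gave whole numbers for 100% of values (within 0.01), so whole reads were recovered.

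Log2(normalized count + 1) was compared by limma 3.58.1 (R 4.3.3, trend option) in 1 model of all 9 libraries and with Benjamini-Hochberg adjustment over 12100 genes averaging 10 or more. Fold changes are on that scale, which understates changes of low genes. Recovered reads were also tested with DESeq2 1.42.0 and edgeR 4.0.16. The fits were tested on simulated counts of independent libraries. These had neither mixture-like libraries 3 nor the wide spread of the 7 genes, so this checks the code and not the p-values given here. The genes, lists and alternatives were chosen with earlier results of these data known. Named genes were the 7 targets, called genes of related lists, fixed regulators and enzymes, and the 10 genes most alike by Pearson r. Some genes that this rule names are not reported here. Depth was at least 7426136 reads, and counting intervals cover counting error only. The labels do not say that libraries of a group come from separate mice, so p-values measure the spread between libraries, which may be partly technical. Replicate numbers in the sample labels were checked by correlating deviations from the group means. Over all genes tested, Dox and Tc libraries of the same number tended to deviate alike (r = 0.287, 0.321 and 0.182), the source of the pairing used for them. Control libraries did not pair with Dox (-0.0535 to 0.0550) or Tc (-0.0807 to 0.00955). Because each library 3 resembles a mixture of the others, these correlations may not be independent. Gene positions and exon lengths are from GENCODE M21 (GRCm38). Alternatives covered the pseudocount (0.1 and 8), the filter, the scaling, the test, the groups fitted, a replicate block, the fold limit and each library left out.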

Additional observations from a re-analysis of the deposited data

Results flagged for a closer look

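For 4 of the 21 cholesterol synthesis enzymes, every Dox library lay below and every Tc library above all control libraries, so that the responses to the drugs pointed in opposite directions. The share of all genes with this pattern was not counted, so the count is not read as particular to these enzymes. Taken singly, 17.1% of all genes had Dox libraries all below the controls and 15.8% had Tc libraries all above. These genes were picked by the same values, which fixed the sign of Dox against Tc in advance, so its p-values are not independent support. The difference of Dox from Tc is given for its size. It was -3.78 on the log2 scale for Sqle (SE 0.71, limma adjusted p = 0.0752), -2.34 for Cyp51 (SE 0.60, limma adjusted p = 0.116), -1.91 for Dhcr7 (SE 0.39, limma adjusted p = 0.0857) and -1.70 for Mvk (SE 0.24, limma adjusted p = 0.0498). Of these, only Mvk passed the adjusted threshold. It did not with the replicate block, which does not take up its opposite deviations in libraries 1 and 2 of the 2 drugs. For Cyp51, Dox library 1 (588 normalized counts) was close to the lowest control (598).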

How the results depend on the processing

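Over 22 alternatives, the single-gene results of the 7 genes gave 462 values. Of these, 419 kept direction and were again not called, 37 were called by the limits of their alternative and 6 changed direction, the cause of which was not tested. The filters, the fits of only the groups compared, the blocks, the fold limit and leaving out libraries of the third group do not alter the fitted change. Direction could not change in those alternatives. No single-gene result of the 7 genes was called to begin with, so none could be lost. The direction changed for Insig1 between Dox and Tc with the same total per library (0.122) and with DESeq2 without libraries 3 (0.0338), and ranged from -0.248 to 0.190 as libraries were left out in turn. It changed for Hmgcs1 (-0.763 to 0.257) and Fdps (-1.57 to 0.299) between Dox and controls, in both when Dox library 2 was left out. Of the 7 genes, 0 were called with Dox against controls, and 1 with the same total per library, with DESeq2 and with no fold limit (0 to 1 with single libraries left out). With Tc against controls 0 were called, 2 with DESeq2, 5 with only these groups fitted and 7 with these groups and the replicate block (0 to 5 with single libraries left out). Between Dox and Tc 0 were called, 4 with DESeq2 and 1 with DESeq2 without libraries 3 (0 to 5). Of the synthesis enzymes, 1 was called with Dox against controls, 2 with DESeq2, and 0 with no filter, edgeR, only these groups, either replicate block or without libraries 3 by limma or DESeq2 (0 to 4 with single libraries left out). With Tc 0 were called, 4 with DESeq2, 9 with only these groups and 12 with these groups and the block (0 to 9). Between Dox and Tc 1 was called, 10 with DESeq2, and 0 with either other pseudocount, no filter, a mean of at least 50, the same total, edgeR, only these groups, either replicate block or limma without libraries 3 (0 to 17). Limma without libraries 3 called 0 of all 12100 genes tested in each comparison, and edgeR 0 between Dox and Tc, so 0 was fixed there. For fits with only the groups compared, with a block or with single libraries left out, shares of all genes called are not given. Those counts are thus not read as particular to these genes. The median log2 fold change of the 7 genes with Dox against controls was -0.225 with DESeq2, -0.223 with edgeR and -0.296 with DESeq2 without libraries 3, against -0.83. The median ranged from -1.57 to 0.257 with Dox against controls and from -2.86 to -1.35 between Dox and Tc as single libraries were left out. Control libraries share only a number with the drug libraries, so a block with them removes spread that is not paired. As each library 3 resembles a mixture, fewer than 3 livers per group may be represented, and the lowest Idi1 value rests on 5 reads.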
